A study of Mus musculus with 6 samples.

Results

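The SLAM family receptors were followed through 6 spleen libraries as 9 genes: Slamf1, Slamf6, Slamf7, Slamf8, Slamf9, Cd244a, Cd48, Cd84 and Ly9. They were chosen by gene symbol as the known members of the family, and all 9 were found among the 32285 genes counted. The study sequenced single splenocytes of C57BL/6 mice, labelled wild type, that entered the experiment at 6 weeks of age and were then fed ND or MCDHFD over 7 weeks, in a model of MASH (metabolic dysfunction-associated steatohepatitis). The labels do not spell out the 2 diet names. There were 3 ND and 3 MCDHFD libraries, made from strained whole spleen with a droplet-based 3' kit that counts unique molecules (UMIs). The labels do not say whether a library is 1 animal or a pool, so p-values measure the spread between libraries.

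SLAM receptors are immunoglobulin-type surface proteins of blood cells. Most of them bind the same receptor on a neighbouring cell, so that cells in contact signal to each other. Cd244a (2B4) is the exception, because its ligand is Cd48, a receptor without a signalling tail that is held in the membrane by a lipid anchor and that also binds Cd2. The tails of Slamf1, Slamf6, Slamf7, Cd244a, Cd84 and Ly9 carry tyrosine motifs for the small adaptors SAP (Sh2d1a) and EAT-2 (Sh2d1b1). Not every receptor recruits both, and SAP in turn recruits the kinase Fyn. Where the adaptors are lacking, the motifs can recruit inhibitory phosphatases. Slamf8 and Slamf9 have short tails without such motifs. In the spleen the family is known for contacts between T and B cells, for the killing activity of NK and CD8 T cells, and for signals in phagocytes.

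The genes lie together on mouse chromosome 1. In the GENCODE annotation of mm10, Cd244a, Ly9, Slamf7, Cd48, Slamf1, Cd84 and Slamf6 span chr1:171559193-171953170, and only 1 other protein-coding gene lies between them. Slamf9 (chr1:172475358-172478575) and Slamf8 (chr1:172581758-172590568) follow further along, so that all 9 fit within 1031.376 kb. The span of Ly9 lies whole within that of Cd244a, on the opposite strand. Slamf7, Cd48 and Slamf6 each overlap a gene model of their own locus, and whether the counting used strand is not given in the sources used here. Promoters are shown for Slamf7 and Slamf1, which had calls by diet, and for Slamf8 and Cd48, whose diets did not overlap in monocytes and macrophages (Slamf8) or in any tested class (Cd48). Each runs 250 bases before to 50 after the RefSeq start on the gene's own strand (RefSeq, GRCm38.p6). Capitals mark short motifs that a search found on either strand.

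Slamf7 promoter (chr1:171648950-171649249, minus strand): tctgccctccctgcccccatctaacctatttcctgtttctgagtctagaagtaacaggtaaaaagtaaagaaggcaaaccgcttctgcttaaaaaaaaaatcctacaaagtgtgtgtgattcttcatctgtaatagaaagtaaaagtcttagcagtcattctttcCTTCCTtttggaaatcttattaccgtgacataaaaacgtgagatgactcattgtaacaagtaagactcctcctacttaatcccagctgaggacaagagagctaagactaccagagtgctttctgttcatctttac
Slamf1 promoter (chr1:171766882-171767181, plus strand): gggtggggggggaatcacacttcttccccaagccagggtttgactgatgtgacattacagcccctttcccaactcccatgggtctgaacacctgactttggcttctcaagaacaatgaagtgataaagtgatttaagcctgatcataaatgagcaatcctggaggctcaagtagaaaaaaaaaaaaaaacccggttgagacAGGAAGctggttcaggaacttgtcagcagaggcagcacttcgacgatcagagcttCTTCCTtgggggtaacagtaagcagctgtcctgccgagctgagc
Slamf8 promoter (chr1:172590519-172590818, minus strand): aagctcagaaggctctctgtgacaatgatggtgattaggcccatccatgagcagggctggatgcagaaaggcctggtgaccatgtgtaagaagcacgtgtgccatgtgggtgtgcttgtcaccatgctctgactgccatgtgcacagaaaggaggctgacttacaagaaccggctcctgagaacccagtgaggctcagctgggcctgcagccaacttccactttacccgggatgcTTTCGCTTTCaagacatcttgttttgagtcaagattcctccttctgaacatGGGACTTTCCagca
Cd48 promoter (chr1:171681742-171682041, plus strand): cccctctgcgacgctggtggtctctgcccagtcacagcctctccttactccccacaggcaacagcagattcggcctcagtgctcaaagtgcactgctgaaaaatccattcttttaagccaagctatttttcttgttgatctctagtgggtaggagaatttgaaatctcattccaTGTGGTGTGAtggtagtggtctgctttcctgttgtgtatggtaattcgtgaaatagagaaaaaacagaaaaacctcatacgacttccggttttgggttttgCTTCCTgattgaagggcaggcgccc

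The search used AGGAAG for ETS factors and TGTGGT for RUNX factors. It also used GGTGTGA for T-box factors, GGGCGG for the GC box, TATAAA for the TATA box and TGACG for the CRE core (cyclic AMP response element), and the interferon-stimulated response element (ISRE) and NF-kB motifs, on both strands. Slamf7 held 1 ETS match and Slamf1 held 2. Slamf8 held an ISRE match 15 bases before the start and an NF-kB match 36 bases after it. Cd48 held a RUNX match and a T-box match that overlap, the latter beginning 73 bases before the start, and an ETS match. Of 32851 promoters of the same length, 35.4% held an ETS match, 16.8% RUNX, 3.98% T-box, 3.44% ISRE and 0.411% NF-kB. No match to the GC box, the TATA box or the TGACG core fell in any of the 8 members with a promoter in the table, against 35.7%, 13.6% and 20.8% of all promoters. These are letter matches and describe the windows alone. The RefSeq start of Slamf7 used here lies 4036 bases inside the outermost start of the GENCODE gene. Ly9 was not in the promoter table.

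Cells were barcodes with at least 1000 UMIs and at most 10% mitochondrial UMIs. The ND libraries gave 6548, 3278 and 4962 of them, and the MCDHFD libraries 6625, 6594 and 3535, from libraries of 21259837 to 62238012 UMIs. Classes were set by marker UMIs alone: B cells by at least 2 UMIs of Cd79a, CD8 T cells by Cd3e with Cd8b1 (split by Ccl5, a chemokine of memory and effector cells), CD4 T cells by Cd3e with Cd4, NK cells by Ncr1 without Cd3e, monocytes and macrophages by Csf1r, dendritic cells by Flt3 with at least 3 UMIs of H2-Aa, and plasmacytoid dendritic cells by at least 2 UMIs of Siglech. Other marker genes needed 1 UMI, and a barcode could meet more than 1 rule. One library of each diet, ND replicate 2 and MCDHFD replicate 3, differed in kind from the rest: it came with a filtered barcode list, its header names another Cell Ranger version, and its mitochondrial UMIs had a median of 0.569% or 1.68% against 3.73% to 3.96%. List form was therefore a term beside diet, except in the alternatives with diet as the only term or with the 4 unfiltered libraries alone. Cell numbers limit the smaller classes: NK cells numbered 37 to 253 per library, dendritic cells 92 to 238, and plasmacytoid dendritic cells 2 to 25, which were too few to test. In the dendritic class, 45.0% to 56.6% of barcodes also met the B cell rule, so values for its subsets by Xcr1 and Cd79a are also given. Libraries shared at most 18 kept barcodes. The unfiltered lists themselves differed. Of the 4962 kept barcodes of ND replicate 3, the list of MCDHFD replicate 1 held 4962 and that of MCDHFD replicate 2 held 4951. The list of ND replicate 1 held 1558 of them. The list form term does not cover this difference, and its part in the results was not tested.

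Each class carried its own pattern of the family (the plot of all 9 members by class). Levels are CPM, the UMIs of a gene scaled to the total UMIs of its class in a library, and they are compared between classes for 1 gene at a time. Slamf7, a receptor of cytotoxic and antigen-presenting cells, was highest in dendritic cells (153 CPM on average) and in NK cells (110 CPM), and lowest in CD4 T cells (11.6 CPM) and Ccl5-negative CD8 T cells (9.57 CPM). Dendritic cells lay above NK cells in all 6 libraries, while B cells, Ccl5-positive CD8 T cells and the monocyte and macrophage class lay between 38.6 and 39.7 CPM and could not be ordered. Dendritic barcodes with Xcr1, a gene of cross-presenting dendritic cells, held 174 to 323 CPM of Slamf7 in the 6 libraries, those with neither Xcr1 nor 2 Cd79a UMIs held 144 to 281 CPM, and those with at least 2 Cd79a UMIs held 40.2 to 129 CPM. The dendritic averages differed when barcodes that met the rule of another lineage were left out. Without them the class had 225 CPM of Slamf7, 111 CPM of Cd244a and 65.3 CPM of Slamf8, but 22.4 CPM of Slamf6, 12.6 CPM of Cd84 and 0.675 CPM of Slamf1.

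**Figure D1:**
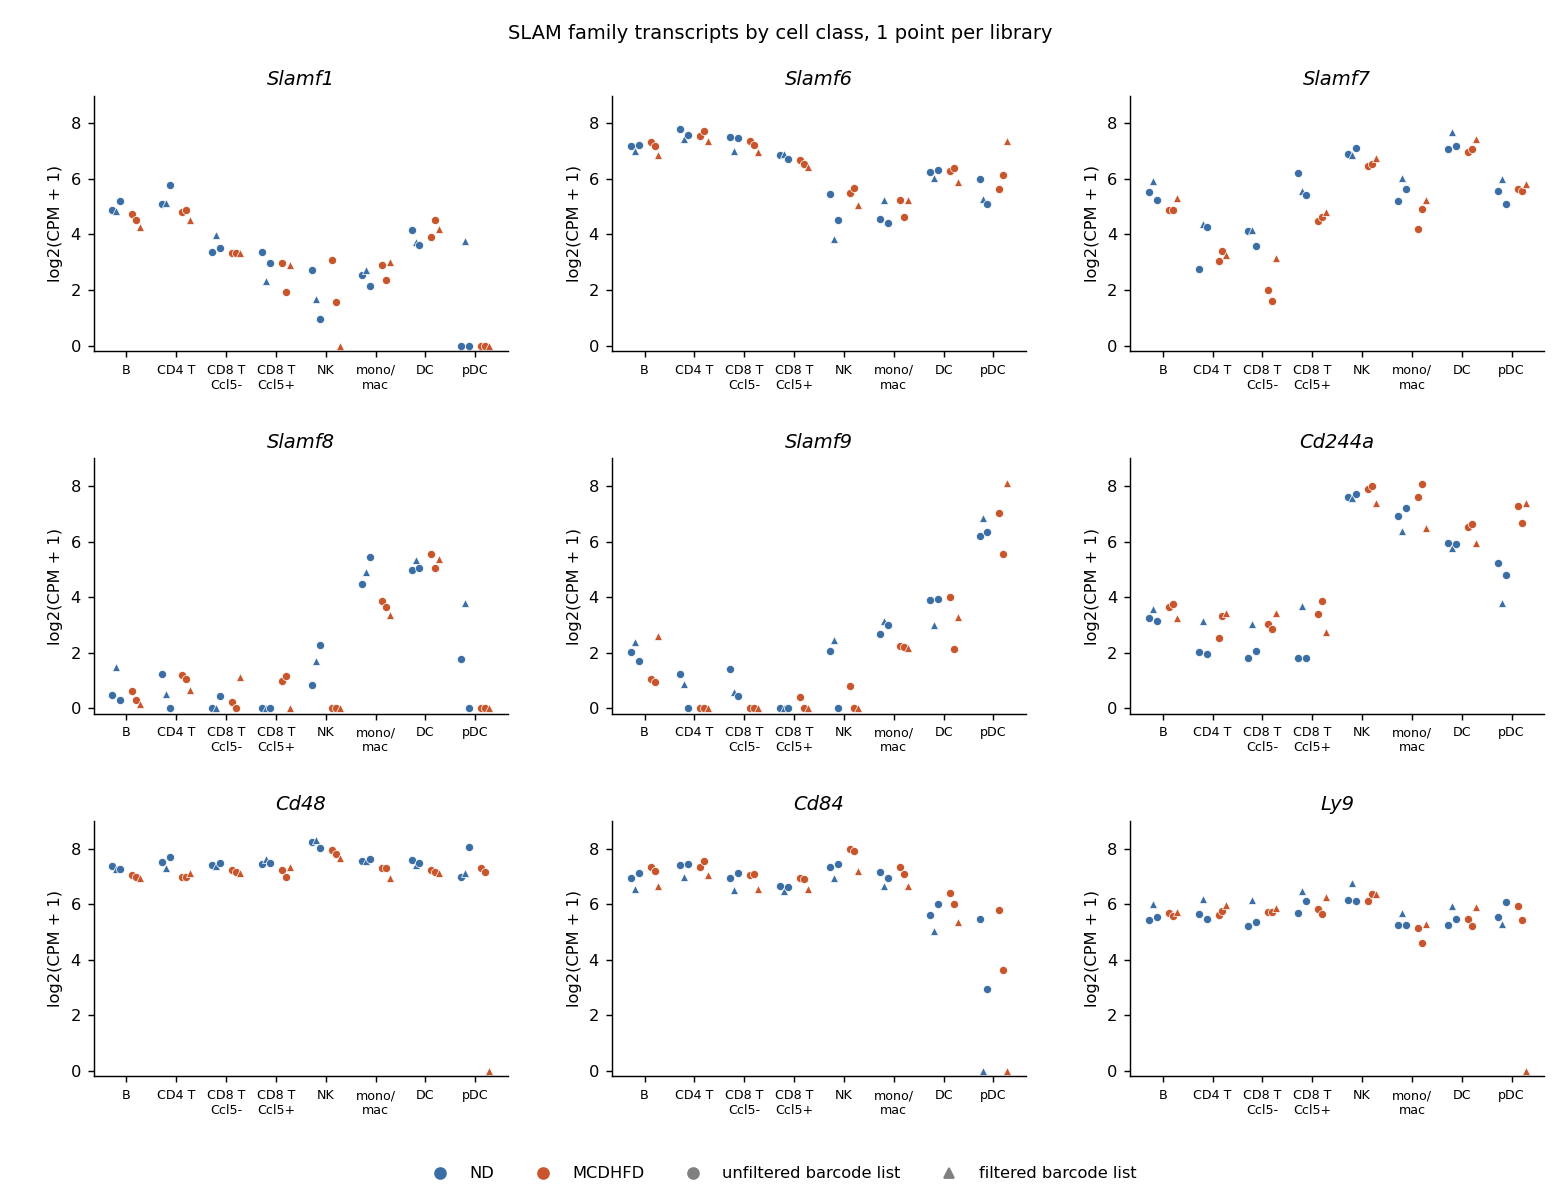
Levels of the 9 members in 8 cell classes, as log2(CPM + 1), with 1 point per library (blue ND, orange MCDHFD; circles for unfiltered and triangles for filtered barcode lists; Ccl5- and Ccl5+ are the CD8 T classes, DC dendritic cells, pDC plasmacytoid dendritic cells). Slamf8 and Slamf9 were near 0 in the lymphocytes, Slamf9 peaked in plasmacytoid dendritic cells at 120 CPM on average, and Cd48, Cd84 and Ly9 were present in every tested class.

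The receptors of T and B cell contacts had another order. Slamf1 (CD150) was highest in CD4 T cells (33.1 CPM) and next in B cells (26.4 CPM), in this order in all 6 libraries, and in 5 of 6 without barcodes of another lineage. Within CD4 T cells, the barcodes with Foxp3, which marks regulatory T cells, held 60.2, 67.9 and 83.7 CPM of Slamf1 in ND and 80.6, 63.9 and 43.2 CPM in MCDHFD. Those without Foxp3 held 27.0, 25.3 and 48.9 CPM in ND and 21.7, 24.5 and 20.6 CPM in MCDHFD, lower than the Foxp3 barcodes of the same library in each of the 6. Slamf6 (Ly108), known as a marker of stem-like CD8 T cells and of helper cells, was highest in CD4 T cells (191 CPM), followed by Ccl5-negative CD8 T cells (154 CPM), B cells (140 CPM) and Ccl5-positive CD8 T cells (103 CPM), again in the same order in all 6 libraries. It was lowest in NK cells (34.3 CPM) and in monocytes and macrophages (29.4 CPM), with dendritic cells at 73.0 CPM. Without barcodes of another lineage these were 23.5 CPM, 8.69 CPM and 22.4 CPM, and NK and dendritic cells could not be ordered. The Ccl5 split thus divided members in opposite ways: Slamf6 was lower and Slamf7 was higher in the Ccl5-positive cells of every library. Slamf1 (6.04 against 10.3 CPM) and Cd84 (104 against 119 CPM) were also lower in the Ccl5-positive cells of all 6 libraries. Without barcodes of another lineage, each of these 2 was lower in 5 of 6. Ly9 was higher in the Ccl5-positive cells on average (64.4 against 51.4 CPM).

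Cd244a was a transcript of NK cells (209 CPM) and of monocytes and macrophages (150 CPM), with dendritic cells at 70.8 CPM. B cells and the T cell classes had 5.98 to 9.94 CPM. Its ligand Cd48 was in every tested class. It was higher in NK cells (259 CPM) than in any other tested class in all 6 libraries, though the plasmacytoid cells of ND replicate 3 had 268 CPM against 262 CPM in its NK cells. Cd48 was between 142 and 168 CPM in the other tested classes, whose neighbours in the order could not be separated. Ly9 (CD229), which restrains innate-like T cells, was also highest in NK cells (79.5 CPM), with Ccl5-positive CD8 T cells next (64.4 CPM). Cd84, a self-binding receptor of B cells and platelets, was 183 CPM in NK cells and 158 CPM in CD4 T cells, where the order changed between libraries. Without barcodes of another lineage NK cells were higher in all 6 (187 against 159 CPM). The dendritic average of Cd84 was 55.6 CPM. It was 64.5 to 157 CPM in barcodes with at least 2 Cd79a UMIs, 2.15 to 44.3 CPM in those with neither Xcr1 nor 2 Cd79a UMIs and 0 to 14.1 CPM in those with Xcr1.

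The 2 members without tyrosine motifs were highest in myeloid classes. Slamf8, which is known to restrain oxidant production in macrophages, was 36.9 CPM in dendritic cells and 21.2 CPM in monocytes and macrophages, and 0.284 to 1.14 CPM in the lymphocyte classes. Slamf9 was 120 CPM in plasmacytoid dendritic cells on average, above the 10.3 CPM of dendritic cells in all 6 libraries. The plasmacytoid values were 72.8, 114 and 80.5 CPM in ND and 131, 46.0 and 275 CPM in MCDHFD, the last from 2 cells. Between 50% and 68.8% of the plasmacytoid barcodes also met the dendritic rule. Over all 9 genes, 18 of 63 neighbouring pairs kept 1 order in all 6 libraries (exact two-sided sign-flip permutation test over libraries, p = 0.03125, the smallest that 6 libraries allow). The smallest adjusted p over the 63 pairs was 0.109 by the Benjamini-Hochberg method, so none passed the 0.05 threshold. Because p cannot fall below 0.03125 here, a pair could pass only if many more pairs had kept 1 order. The adjusted values therefore cannot show which orders are stable.

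With MCDHFD, the transcripts that fell in at least 1 class were Slamf7 and Slamf1, and no member was called higher in any class in this fit. Counts were summed per library and class and tested in edgeR (quasi-likelihood test, diet and list form as terms, Benjamini-Hochberg adjustment over all genes of the class). Of the members tested, 2 of 8 fell in B cells, where 2.68% of all genes were called lower. In CD8 T cells 1 of 7 fell, against 0.315% of all genes, and 1 of 7 also in Ccl5-negative cells (0.66%) and in Ccl5-positive cells (0.386%). Genes called higher made up 1.68%, 0.198%, 0.45% and 0.243% in these 4 classes. In the other 4 classes none was called: 0 of 7 in CD4 T cells, 0 of 6 in NK cells, 0 of 9 in monocytes and macrophages and 0 of 9 in dendritic cells. All genes were called lower there at 1.23%, 1.83%, 0.645% and 0.724%, and higher at 0.543%, 1.18%, 0.314% and 0.672%. At an unadjusted p under 0.05 there were 3, 3, 6 and 2 members in these 4 classes. DESeq2 called 1 in monocytes and macrophages and none in the other 3. The shares of all genes at that unadjusted level and in DESeq2 are not given here, so these counts do not set the family apart. The calls rest on the list form term: with diet as the only term, no member was called in any class.

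**Figure D2:**
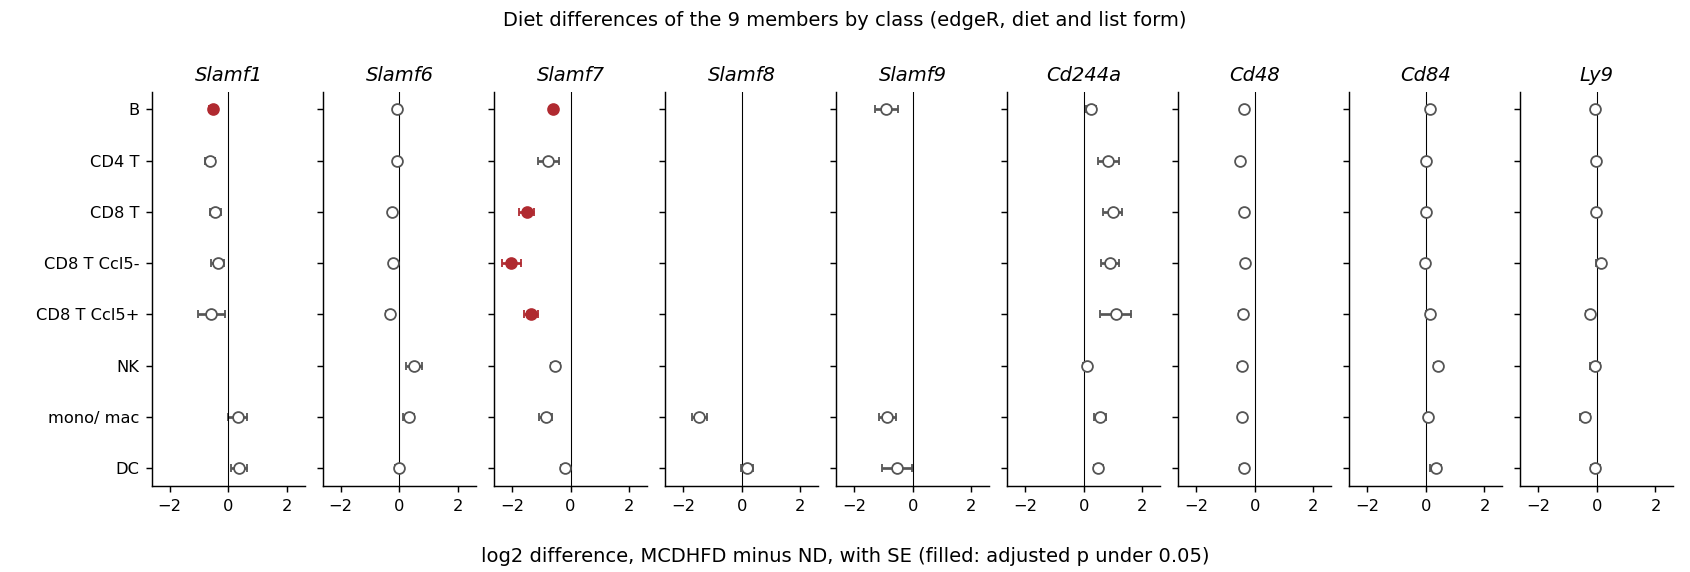
Fitted log2 differences between diets (MCDHFD minus ND, with standard errors) of each member in each tested class; filled red points have an adjusted p under 0.05 in edgeR, and classes where a gene was too low to test are blank. Slamf7 and Cd48 lie left of 0 in all 8 classes, with Slamf7 reaching -2.01 in Ccl5-negative CD8 T cells.

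Slamf7 fell in CD8 T cells on both sides of the Ccl5 split. In Ccl5-positive cells it was 74.1, 46.2 and 41.4 CPM in ND and 21.6, 24.0 and 27.2 CPM in MCDHFD. The 2 diets did not overlap, and the ND library at 74.1 CPM stood highest. The log2 difference was -1.33 ± 0.23 (SE, n = 3 libraries per diet, adjusted p = 0.0192 in edgeR). In Ccl5-negative cells the level was lower: 16.6, 16.9 and 11.1 CPM in ND and 2.98, 2.02 and 7.79 CPM in MCDHFD. These did not overlap either, and the difference was -2.01 ± 0.33 (adjusted p = 0.0105 in edgeR). For all CD8 T cells the difference was -1.49 ± 0.25 (adjusted p = 0.0438), which is not independent of the other two and was lost without ND replicate 3, MCDHFD replicate 1 or MCDHFD replicate 2 and without a filter on low counts. Inside each list form the direction was the same: -2.08 among unfiltered and -1.02 between filtered libraries in the Ccl5-negative cells, and -1.25 and -0.75 in the Ccl5-positive cells, on the log2(CPM + 1) scale.

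The share of CD8 T cells with a Slamf7 UMI moved with the level. Expected after thinning each cell to 1000 UMIs, it was 4.31% ± 0.34 (SD, n = 3) in ND and 2.66% ± 0.66 in MCDHFD for Ccl5-positive cells (exact permutation test, two-sided, p = 0.1, the smallest that 3 against 3 allow). Without thinning, 26.5% to 33.0% of the ND cells and 16.9% to 18.8% of the MCDHFD cells had a UMI. In the Ccl5-negative cells the thinned shares were 0.942% ± 0.148 and 0.348% ± 0.218 (exact permutation p = 0.1), and the unthinned shares were 6.67% to 7.32% and 1.37% to 3.49%. CD4 T cells, which hold little Slamf7, had thinned shares of 1.18% ± 0.465 and 0.721% ± 0.173 (exact permutation p = 0.3). The median cell held 5697 to 7916 UMIs there and 6457 to 9011 UMIs in the Ccl5-negative cells. The Ccl5-negative shares thus lay no higher than those of CD4 T cells, and at that level UMIs of free RNA cannot be told apart from UMIs of the cells.

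The Slamf7 difference between Ccl5-positive and Ccl5-negative cells was itself tested. The diet effects differed by 0.86 ± 0.29 on the log2 scale, with an unadjusted p of 0.0082 but an adjusted p of 0.664 over all genes in edgeR, so no difference between the classes was called. The Ccl5-positive effect differed from that in CD4 T cells by -0.57 ± 0.49 (adjusted p = 0.88) and from that in NK cells by -0.79 ± 0.27 (adjusted p = 0.414). No member was called in any of these 3 tests of a difference, where 0.232%, 0.0548% and 0.0931% of all genes were called higher and 0.0464%, 0.0548% and 0.0621% lower. At an unadjusted p under 0.05 there were 1, 0 and 3 members, a description without the share of all genes at that level.

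**Figure D3:**
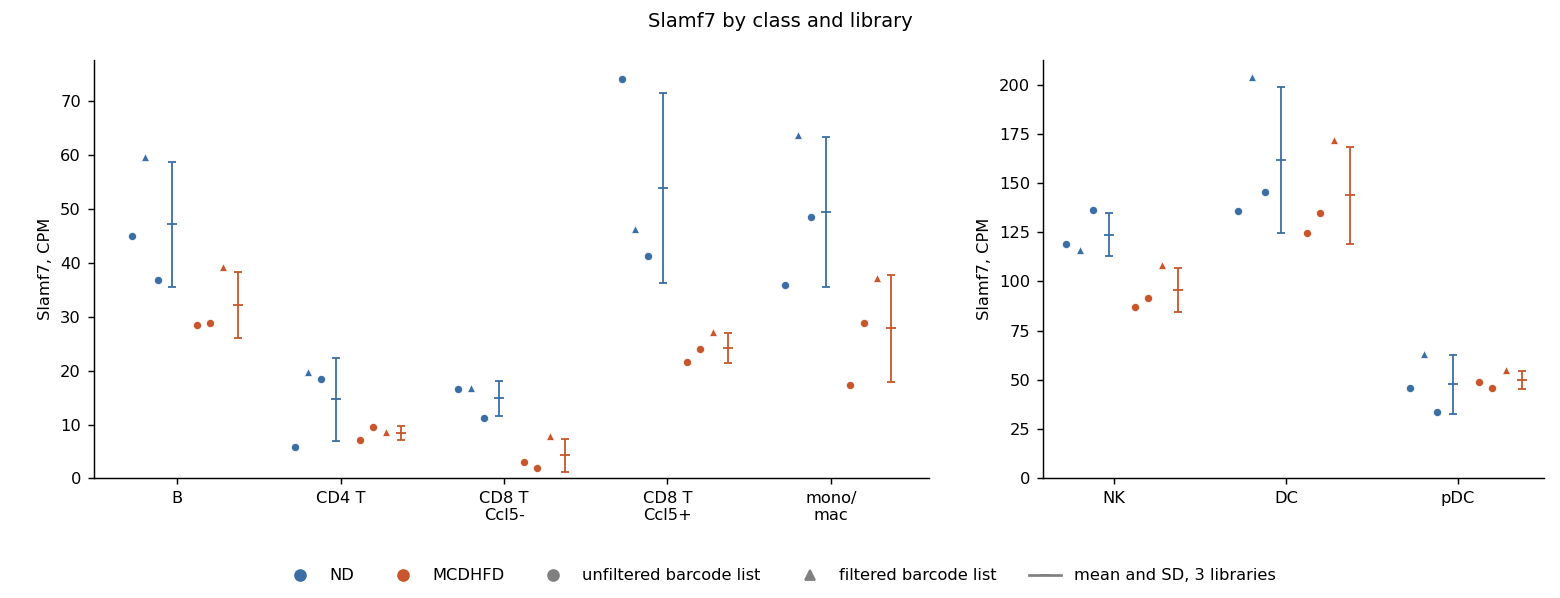
Slamf7 in CPM per library (points) with the mean and SD of 3 libraries (bars), ND in blue and MCDHFD in orange, circles for unfiltered and triangles for filtered barcode lists. The diets do not overlap in either CD8 T class (41.4 CPM and above in ND against 27.2 CPM and below in MCDHFD for Ccl5-positive cells) or in NK cells, and they overlap in B cells, in the monocyte and macrophage class and in dendritic cells.

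Markers of other cells moved with some of these values. The 6 NK genes summed to 20.9 to 32.2 CPM in the Ccl5-negative ND cells and to 9.91 to 16.3 CPM in MCDHFD, against 7835 to 12064 CPM in the NK class itself. In the Ccl5-positive cells they overlapped between diets. The 5 plasma cell genes were 399 CPM in the Ccl5-positive cells of ND replicate 1 and 38.8 to 67.9 CPM in the other 5 libraries. Without ND replicate 1 the Slamf7 difference was -0.86 (adjusted p = 0.138), so the Ccl5-positive call rests on that library. The Ccl5-negative call was lost without MCDHFD replicate 2 (-1.76, adjusted p = 0.0664). The 6 neutrophil genes reached 14667 CPM in the Ccl5-negative cells of ND replicate 1 and 108 to 3044 CPM in the other libraries. The 5 T cell genes were themselves lower with MCDHFD in the Ccl5-negative cells, at 2592 to 2669 CPM in ND and 2137 to 2215 CPM in MCDHFD. What part these markers have in the Slamf7 difference was not tested. Without barcodes that met the rule of another lineage, it was -2.22 (adjusted p = 0.00732) and -1.51 (adjusted p = 0.00172) in the 2 classes.

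Slamf7 also fell in B cells. It was 45.0, 59.7 and 36.8 CPM in ND and 28.5, 28.8 and 39.3 CPM in MCDHFD, so the diets overlapped over all 6 libraries. Each list form showed the difference, at -0.49 among unfiltered and -0.59 between filtered libraries, and the fitted value was -0.60 ± 0.10 (adjusted p = 0.03 in edgeR). Slamf7 is known as an abundant receptor of plasma cells, which also carry Cd79a. The 5 plasma cell genes summed to 1601 to 2914 CPM in this class in ND and to 1171 to 3480 CPM in MCDHFD. In B cells with Fcer2a, which marks follicular cells, Slamf7 was 33.9, 51.2 and 33.8 CPM in ND and 22.3, 22.4 and 27.3 CPM in MCDHFD, with no overlap (log2 -0.76, adjusted p = 0.00265 in edgeR). In those with Cr2 but no Fcer2a it was 33.4, 48.8 and 36.0 CPM against 26.5, 24.4 and 29.6 CPM (log2 -0.59, adjusted p = 0.0125). These 2 subsets were added after the data were seen. The B cell call was lost without ND replicate 1, MCDHFD replicate 1 or MCDHFD replicate 2, and at a limit of 5% mitochondrial UMIs.

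Slamf1 fell in B cells too. It was 28.2, 28.0 and 36.2 CPM in ND and 25.9, 22.0 and 18.2 CPM in MCDHFD. The diets did not overlap, and the closest values were 28.0 and 25.9 CPM. The difference was -0.54 ± 0.11 (adjusted p = 0.0417 in edgeR). The call was lost in 10 of 18 alternatives, while all 18 kept the direction. These were the fits with diet alone, without ND replicate 1, ND replicate 3, MCDHFD replicate 1 or MCDHFD replicate 2, at a limit of 5% mitochondrial UMIs, without barcodes of another lineage, without predicted doublets, and in either B cell subset alone. The make-up of the class moved with diet: the Fcer2a cells, which hold more Slamf1 than those with Cr2 alone in every library, were 62.6% to 65.0% of it in ND and 52.9% to 55.9% in MCDHFD. Within the Fcer2a cells Slamf1 was 36.5, 34.0 and 48.9 CPM in ND and 34.0, 29.4 and 26.1 CPM in MCDHFD (-0.49 ± 0.12, adjusted p = 0.0517 in edgeR). Within those with Cr2 but no Fcer2a it was 20.9, 21.9 and 19.0 CPM against 19.2, 16.4 and 15.9 CPM (-0.31 ± 0.15, adjusted p = 0.212). The diets overlapped in both subsets, narrowly in the first. The part of the shift in make-up was not tested. In CD4 T cells Slamf1 was 33.6, 33.8 and 53.4 CPM in ND and 26.9, 28.8 and 22.2 CPM in MCDHFD, without overlap, but the adjusted p was 0.0947 (log2 -0.64 ± 0.17). The Foxp3-negative cells had -0.61 (adjusted p = 0.211) and the Foxp3-positive cells -0.20 (adjusted p = 0.784). Foxp3-positive cells, which hold more Slamf1, made up 13.4% to 16.3% of the CD4 T cells in ND and 7.75% to 11.4% in MCDHFD. The part of that shift was not tested either.

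In the classes without a call, Slamf7 was also lower in the fit. NK cells had 119, 116 and 136 CPM in ND and 87.0, 91.6 and 108 CPM in MCDHFD, with no overlap and a difference of -0.52 ± 0.15 (adjusted p = 0.0733 in edgeR). Between the filtered libraries, where MCDHFD replicate 3 has 37 NK cells, it was -0.09. Monocytes and macrophages had 36.0, 63.8 and 48.5 CPM in ND and 17.4, 28.9 and 37.3 CPM in MCDHFD (-0.85 ± 0.23, adjusted p = 0.136). CD4 T cells had -0.76 ± 0.36 (adjusted p = 0.334). Dendritic cells, which hold the most Slamf7, had 136, 204 and 145 CPM in ND and 125, 135 and 172 CPM in MCDHFD, which overlap (-0.18 ± 0.12, adjusted p = 0.546). Those with neither Xcr1 nor 2 Cd79a UMIs had 208, 281 and 223 CPM in ND and 144, 173 and 187 CPM in MCDHFD, without overlap (-0.54 ± 0.15, adjusted p = 0.171 in edgeR). Those with at least 2 Cd79a UMIs had 80.9, 129 and 40.2 CPM against 43.5, 53.4 and 71.1 CPM, which overlap (-0.54 ± 0.26, adjusted p = 0.331 in edgeR). These subsets were added after the data were seen. All 8 classes come from the same 6 libraries, so the shared sign is not 8 independent results.

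The Cd48 ligand was lower with MCDHFD in each of the 8 tested classes, and in each the 2 diets did not overlap. No class passed the adjusted threshold. In NK cells Cd48 was 303, 321 and 262 CPM in ND and 247, 223 and 200 CPM in MCDHFD (log2 -0.44 ± 0.14, adjusted p = 0.0973 in edgeR). In B cells it was 167, 153 and 153 CPM against 132, 126 and 123 CPM (-0.37 ± 0.09, adjusted p = 0.0674). In CD4 T cells it was 183, 157 and 207 CPM against 126, 126 and 140 CPM (-0.49 ± 0.12, adjusted p = 0.0827). The narrowest gap was in Ccl5-positive CD8 T cells, with 172, 196 and 176 CPM against 149, 125 and 163 CPM (-0.39 ± 0.13, adjusted p = 0.253). Differences over the 8 classes ran from -0.49 to -0.32, and the median of all genes tested was between -0.01 and 0.05 in each class. Among genes with a mean of at least 10 CPM, 4.64% in B cells, 2.23% in CD8 T cells, 2.15% in Ccl5-negative cells, 3.1% in Ccl5-positive cells, 4.85% in CD4 T cells, 5.8% in NK cells, 5.7% in monocytes and macrophages and 4.3% in dendritic cells lay lower with MCDHFD without overlap. The same libraries and some of the same barcodes underlie the classes, and the count of 8 is a description.

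**Figure D4:**
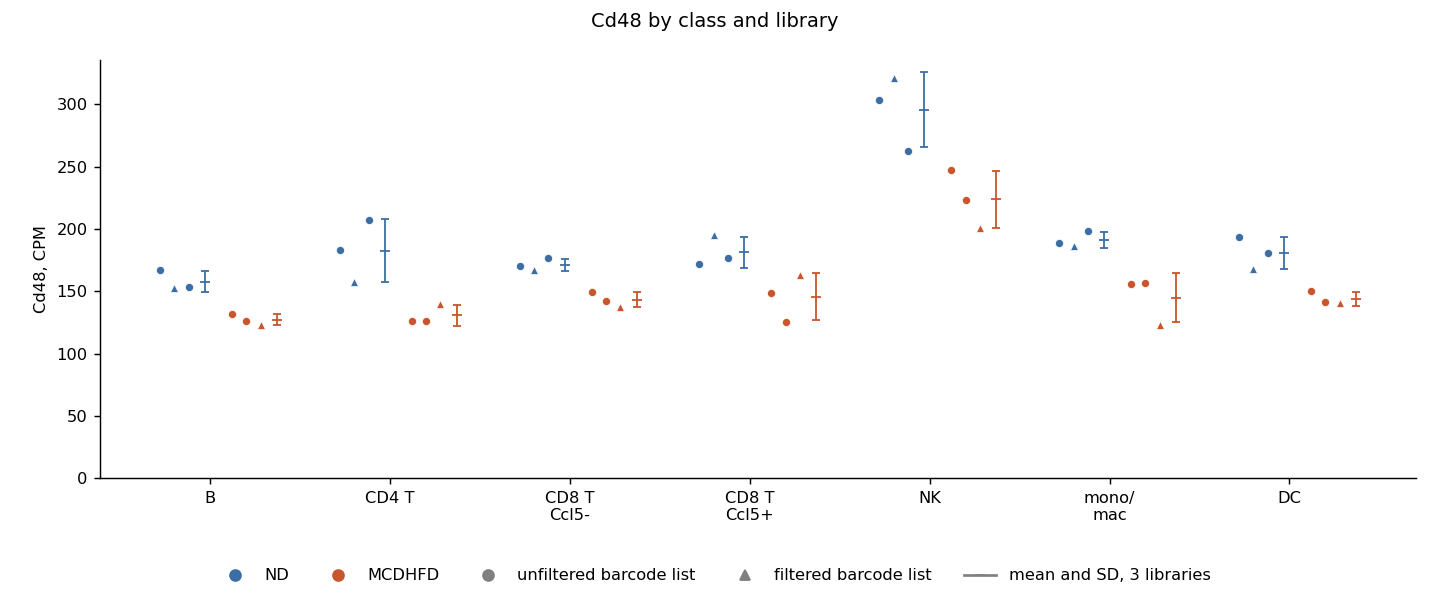
Cd48 in CPM per library (points) with the mean and SD of 3 libraries (bars) in 7 classes, ND in blue and MCDHFD in orange, circles for unfiltered and triangles for filtered barcode lists. In each class every MCDHFD library lies below every ND library, from 200 to 247 against 262 to 321 CPM in NK cells to 123 to 132 against 153 to 167 CPM in B cells.

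Cd244a, the receptor for Cd48, was fitted higher with MCDHFD in all 8 classes, and none was called. In NK cells it was 195, 189 and 210 CPM in ND and 235, 256 and 168 CPM in MCDHFD, which overlap (0.11 ± 0.14, adjusted p = 0.692). In monocytes and macrophages it was 121, 82.2 and 147 CPM in ND and 195, 267 and 89.4 CPM in MCDHFD (0.56 ± 0.20, adjusted p = 0.232). The unfiltered libraries differed there by 0.78 and the filtered pair by 0.12 on the log2(CPM + 1) scale. Of the tested classes, dendritic cells were the 1 without overlap, at 60.7, 53.7 and 60.0 CPM against 90.4, 98.9 and 61.4 CPM (0.50 ± 0.15, adjusted p = 0.147). In that class 6.13% of genes with a mean of at least 10 CPM lay higher with MCDHFD without overlap. Plasmacytoid dendritic cells, too few to test, had 36.4, 12.7 and 26.8 CPM of Cd244a in ND and 153, 99.7 and 165 CPM in MCDHFD. These did not overlap either, but the last value came from 2 cells. The share of all genes without overlap is not given for that class. Its barcodes in ND replicate 1 also held 16798 CPM of the 6 neutrophil genes, against 0 to 2654 CPM in the other libraries. In the Ccl5-positive CD8 T cells the 2 list forms went opposite ways, at 1.82 and -0.94. Cd244a overlaps Ly9 on the other strand, and reads of the overlap could not be told apart without strand.

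Slamf8 showed the largest difference among the myeloid values without reaching the threshold. In monocytes and macrophages it was 21.3, 29.1 and 42.5 CPM in ND and 13.7, 11.6 and 9.22 CPM in MCDHFD. The diets did not overlap, and the log2 difference was -1.44 ± 0.27 (adjusted p = 0.0604 in edgeR), with -1.19 among unfiltered and -1.56 between filtered libraries. Leaving out 1 library at a time gave -1.73 to -1.09, with adjusted p from 0.0379 to 0.198 in edgeR, below the threshold only without ND replicate 1. It also passed in DESeq2 (adjusted p = 0.00159), without a filter on low counts and with the replicate block, 4 of 19 alternatives in all. The replicate block fit has nearly as many terms as libraries, so little spread is left to judge it by. The expected share of cells with a UMI at 1000 UMIs was 2.78% ± 0.556 in ND and 0.964% ± 0.211 in MCDHFD (exact permutation p = 0.1). The make-up of the class moved as well, since barcodes with Vcam1, a gene of red pulp macrophages, made up 24.8% to 27.5% of it in ND and 28.4%, 18.8% and 59.6% in MCDHFD replicates 1 to 3. The 8 monocyte and macrophage genes summed to 9169 to 9911 CPM in ND and 6532 to 8721 CPM in MCDHFD. The 6 neutrophil genes were 9742 to 36027 CPM in ND and 11756 to 13288 CPM in MCDHFD. The 5 erythroid genes were 3283 to 13760 CPM and 1882 to 7625 CPM. The part of the shift in make-up and of these markers in the result was not tested, but subsets of the class are given next. B cells had a share of 0.0541% ± 0.0698 in ND and 0.0183% ± 0.0173 in MCDHFD, the level in cells that should lack the gene.

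Slamf8 was fitted lower in each of 3 subsets of that class, and none passed the threshold. Barcodes with Ly6c2 and no Vcam1, a gene pair of classical monocytes, held 24.5, 33.4 and 52.0 CPM in ND and 15.5, 7.56 and 9.33 CPM in MCDHFD (log2 -1.77, adjusted p = 0.0982 in edgeR). Those with Vcam1 held 27.9, 33.7 and 46.4 CPM against 15, 7.61 and 5.31 CPM (-2.0, adjusted p = 0.0659). The diets did not overlap in either. Those with neither gene held 12.4, 18.8 and 31.2 CPM against 11.1, 16.9 and 16.0 CPM, which overlap (-0.54, adjusted p = 0.552). The subsets were added after the data were seen, and differences between them were not tested. Dendritic cells had 30.9, 39.9 and 31.8 CPM of Slamf8 in ND and 46.6, 32.2 and 40.1 CPM in MCDHFD (0.19 ± 0.20, adjusted p = 0.724).

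**Figure D5:**
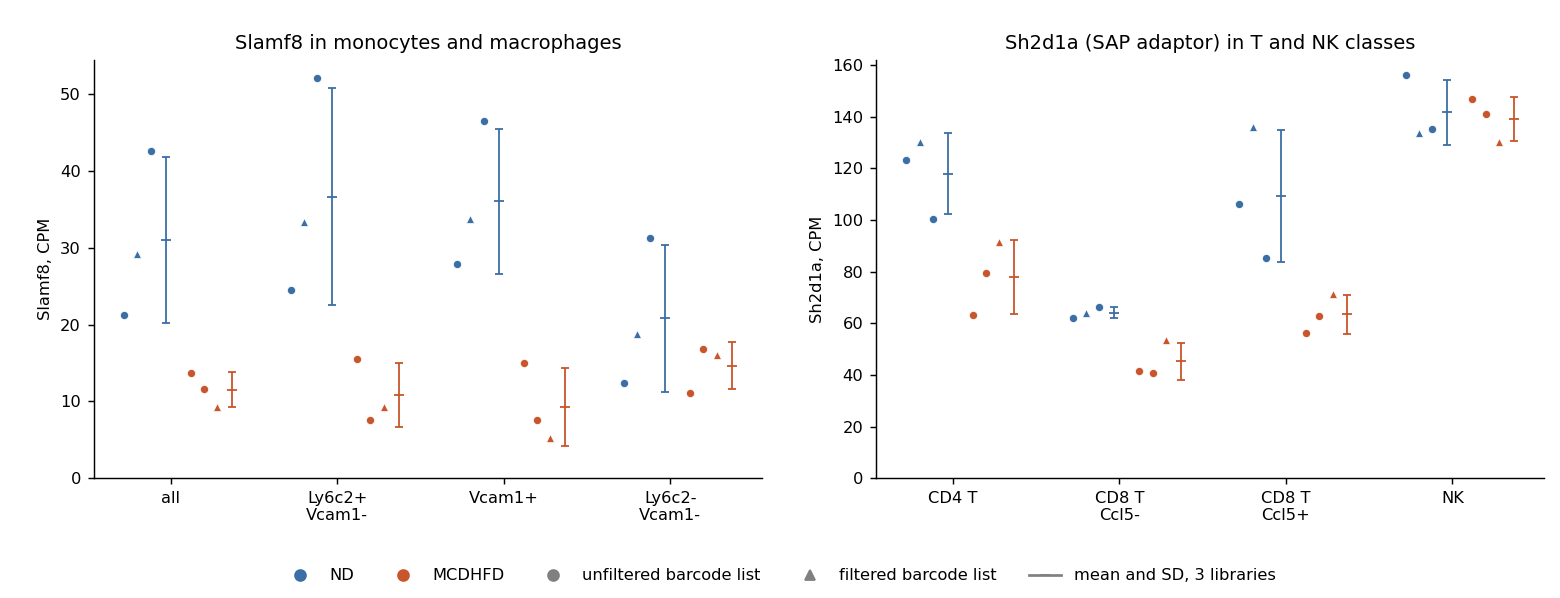
Left, Slamf8 in CPM per library in the monocyte and macrophage class and in its subsets by Ly6c2 and Vcam1 UMIs; right, Sh2d1a in CPM per library in T and NK classes; bars give the mean and SD of 3 libraries, ND in blue and MCDHFD in orange, circles for unfiltered and triangles for filtered barcode lists. Slamf8 is lower in every MCDHFD library in the whole class (9.22 to 13.7 against 21.3 to 42.5 CPM), and Sh2d1a is lower in the T classes and overlaps in NK cells.

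Slamf9 was lower in the fit in each of the 3 classes where it could be tested, with no call. In monocytes and macrophages it was 5.32, 7.85 and 6.93 CPM in ND and 3.69, 3.63 and 3.55 CPM in MCDHFD, without overlap (-0.87 ± 0.29, adjusted p = 0.215). In B cells it was 3.05, 4.27 and 2.27 CPM against 1.09, 0.915 and 5.03 CPM, where MCDHFD replicate 3 lay above all others (-0.89 ± 0.40, adjusted p = 0.233). In dendritic cells the difference was -0.54 ± 0.52 (adjusted p = 0.696).

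Slamf6, Cd84 and Ly9 had no call in any class. For Slamf6 the differences ran from -0.33 to 0.49, with adjusted p from 0.276 to 0.982. Ccl5-positive CD8 T cells had 114, 119 and 104 CPM of Slamf6 in ND and 103, 92.7 and 84.3 CPM in MCDHFD, the 1 class in which the diets did not overlap (-0.33 ± 0.13, adjusted p = 0.334). For Cd84 they ran from -0.02 to 0.43. Its largest was in NK cells, with 163, 122 and 173 CPM against 251, 244 and 146 CPM, which overlap (0.43 ± 0.13, adjusted p = 0.0864). For Ly9 they ran from -0.40 to 0.14, with adjusted p from 0.285 to 0.975. Both Ly9 and Cd84 moved with list form. In B cells Ly9 was 63.8 and 52.2 CPM in the 2 filtered libraries and 42.1 to 50.9 CPM in the other 4, while Cd84 was 91.6 and 101 CPM against 121 to 160 CPM.

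Of the signalling partners, the adaptor SAP (Sh2d1a) fell in the T cell classes. In CD4 T cells Sh2d1a was 123, 130 and 100 CPM in ND and 63.1, 79.5 and 91.6 CPM in MCDHFD (log2 -0.61, adjusted p = 0.0461 in edgeR). In Ccl5-positive CD8 T cells it was 106, 136 and 85.3 CPM against 56.3, 62.7 and 71.5 CPM (-0.84, adjusted p = 0.0174). In Ccl5-negative cells it was 62.0, 63.9 and 66.2 CPM against 41.7, 40.9 and 53.6 CPM (-0.58, adjusted p = 0.0463). None of the 3 overlapped. In NK cells, which hold the most, Sh2d1a was 156, 134 and 135 CPM against 147, 141 and 130 CPM and was not called. The T cell calls were lost without ND replicate 1 in all 3 classes, without ND replicate 3, MCDHFD replicate 1 or MCDHFD replicate 2 in the CD4 and the Ccl5-negative class, and without ND replicate 2 in the Ccl5-positive class. The Ccl5-negative call was also lost in DESeq2, at a limit of 5% mitochondrial UMIs, without barcodes of another lineage and without predicted doublets. The CD4 call was also lost without a filter on low counts, without predicted doublets and in either Foxp3 subset alone. All 3 were lost with diet as the only term, and every alternative kept the direction. The 5 T cell markers were lower in the same classes (2269 to 2420 CPM in MCDHFD against 2715 to 3339 CPM in ND for CD4 T cells), and their part was not tested. EAT-2 (Sh2d1b1) was found in NK cells, at 32.0, 44.5 and 36.2 CPM against 25.8, 33.1 and 27.1 CPM, and in monocytes and macrophages, at 33.9, 29.6 and 32.1 CPM against 38.2, 42.2 and 36.9 CPM, with no call.

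The list of 25 partners held adaptors, Src-family kinases, phosphatases and downstream enzymes. In each CD8 and CD4 class, 23 were tested and Sh2d1a was the 1 called. All genes were called lower at 0.315% in CD8 T cells, 0.66% in Ccl5-negative, 0.386% in Ccl5-positive and 1.23% in CD4 T cells. In B cells 24 were tested, of which 3 rose and 2 fell. There 1.68% of all genes were called higher and 2.68% lower. Those that rose were Prkcq (protein kinase C theta), with 15.2, 24.1 and 15.3 CPM in ND and 42.7, 39.7 and 46.9 CPM in MCDHFD (log2 1.23, adjusted p = 0.0054), Plcg1, a phospholipase (0.80, adjusted p = 0.0176), and the T cell scaffold Lat (0.95, adjusted p = 0.017). Lat moved with list form, at 29.9 and 65.4 CPM in the filtered and 5.47 to 12.6 CPM in the unfiltered libraries. Those that fell were the scaffold Lat2 (-0.54, adjusted p = 0.0225) and Cd2, the other receptor for Cd48, with 129, 152 and 132 CPM against 110, 91.3 and 104 CPM (-0.49, adjusted p = 0.0372). Cd2 fell outside the rule for named genes and is named after its values were seen. All 5 calls were lost with diet as the only term and without ND replicate 1, and all but that of Prkcq also without ND replicate 3 or MCDHFD replicate 1. Those of Plcg1, Lat2 and Cd2 were lost without MCDHFD replicate 2 as well, and that of Cd2 at a limit of 5% mitochondrial UMIs and in the cells with Cr2 but no Fcer2a. The direction held in every alternative. Prkcq and Lat are T cell genes, at 331 to 731 CPM and 172 to 545 CPM in CD4 T cells, and the 5 T cell markers in the B class (Cd3d, Cd3g, Trac, Trbc2 and Lck) were 84.6 to 187 CPM in ND and 136 to 323 CPM in MCDHFD. Their part was not tested. Without predicted doublets the values were 0.91 (adjusted p = 0.0193) for Prkcq and 0.65 (adjusted p = 0.135) for Lat, but that prediction marked no barcode in the 2 filtered libraries, where 6.99% and 9.22% of barcodes met the rules of several lineages. Without barcodes of another lineage they were 1.28 (adjusted p = 0.0093) and 0.87 (adjusted p = 0.0314). In monocytes and macrophages 1 of 24 partners was called, Lat (1.51, adjusted p = 0.0192), where 0.314% of all genes rose. There the T cell markers were 89.4 to 197 CPM in ND and 153 to 395 CPM in MCDHFD, and without barcodes of another lineage Lat had 0.84 (adjusted p = 0.433). That call was lost in 10 of 19 alternatives. In NK cells and in dendritic cells edgeR and DESeq2 called 0 of 23 partners, with 4 in each class at an unadjusted p under 0.05. Of the 12 protein-coding neighbours of the locus, 3 to 8 could be tested per class, and neither tool called any. At an unadjusted p under 0.05 there were 0 to 2 per class. The share of all genes at that level is not given beside these counts of partners and neighbours.

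Across the 8 class averages, the genes most like each member in pattern were taken from 5089 genes by Pearson correlation of log2(CPM + 10). All points share the same libraries, the averages include barcodes that met several rules, and no test applies. One point is the plasmacytoid class, with 2 to 25 cells per library. The Slamf9 values rest mostly on it, since Slamf9 was 120 CPM there and 10.3 CPM in the next class. Slamf7 was nearest to Mdh1 (r = 0.962) and Lrrk1 (r = 0.927), and Slamf8 to Zfp366 (r = 0.996) and Pak1 (r = 0.995). Slamf9 was nearest to Upb1 (r = 0.998) and Smim5 (r = 0.996), and Cd244a to Prr5l (r = 0.988) and Fcer1g (r = 0.981). Slamf1 was nearest to Nxpe3 (r = 0.973) and Lbh (r = 0.964), and Slamf6 to Il21r (r = 0.956) and Inpp4b (r = 0.947). Cd48 was nearest to Ccndbp1 (r = 0.984) and Dnmt1 (r = 0.978), Cd84 to Tsc22d4 (r = 0.989) and Phf3 (r = 0.988), and Ly9 to Prag1 (r = 0.985) and Mosmo (r = 0.966). Between members, Cd84 and Cd48 were most alike (r = 0.777), and Cd244a and Slamf6 most opposed (r = -0.952).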

How the data were processed

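Spleen cells of 3 ND and 3 MCDHFD libraries were read from the deposited count matrices, which hold whole-number UMI counts per gene and barcode. Per the submitters' processing notes, Cell Ranger 9.1.0, Seurat 4.3.0 and mm10 were used; per the file headers, the version was 7.2.0 for 2 libraries with filtered barcode lists (3409 and 3807 barcodes) and 9.0.1 for 4 libraries with unfiltered lists (1114720 to 1345921 barcodes). Barcodes with at least 1000 UMIs and at most 10% mitochondrial UMIs were kept; predicted doublets (Scrublet in scanpy 1.11.5) stayed in and were left out as an alternative, which removed 1.05% to 3.53% of barcodes in the unfiltered and none in the filtered libraries.

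Counts were summed per library and class. A class was tested when every library had at least 20 cells. The test was edgeR 4.0.16 (quasi-likelihood, TMM, filterByExpr, diet and list form as terms) in R 4.3.3, with Benjamini-Hochberg adjustment over all genes of the class and a threshold of 0.05, and was tested on simulated data. DESeq2 1.42.0 was an alternative. Thinned shares of cells with a UMI are the expected shares after drawing 1000 UMIs of each cell, and their ± values are SDs over 3 libraries. Library totals were 21259837 to 62238012 UMIs, and libraries shared 0 to 18 kept barcodes.

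All 9 members were named in every class. From 25 signalling partners and 12 neighbours, those called were named, at most 4 per class by smallest p, and for likeness the 2 genes with the highest correlation. The members, lists and the list form term were chosen with earlier results of these data known, so patterns already known, such as Slamf7 in CD8 T cells, are not independent support.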

Additional observations from a re-analysis of the deposited data

Results flagged for a closer look

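Ly9 was present in barcodes that met none of the class rules and so entered no comparison. It was 16.4, 31.0 and 26.8 CPM in ND replicates 1 to 3 and 33.9, 42.1 and 33.2 CPM in MCDHFD replicates 1 to 3. The MCDHFD mean of 36.4 CPM lay above every ND library, and the diets did not overlap, with 31.0 and 33.2 CPM as the closest values. The share of all genes without overlap is not given for these barcodes, so the lack of overlap does not set Ly9 apart. Values of the other members in these barcodes are not given here either, and the difference was not tested. These barcodes numbered 398 to 1393 per library, and their cell types are not known here.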

How the results depend on the processing

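Counts of called members depended on the fit. With diet as the only term they were 0 in every class, against 2 in B cells and 1 in each of the 3 CD8 T cell classes. With the 4 unfiltered libraries alone they were 5 in B cells (1 higher, 4 lower, against 7.78% and 12% of all genes), 2 in CD8 T cells (1 higher, 1 lower; 0.665% and 1.36%), 1 in CD4 T cells (lower; 3.98%) and 3 in NK cells (1 higher, 2 lower; 3.26% and 7.07%). The higher ones were Cd244a in B and CD8 T cells and Cd84 in NK cells. DESeq2 gave 2 in CD8 T cells and 1 in monocytes and macrophages; without a filter on low counts the values were 0 and 3, of which Cd244a was higher (1.95% of all genes higher, 3.26% lower). In B cells, a limit of 5% mitochondrial UMIs gave 0, and leaving out barcodes of another lineage, predicted doublets, or all but either B cell subset gave 1 each. Leaving out other-lineage barcodes gave 1 in CD4 T cells and 2 in NK cells. Leaving out 1 library at a time gave 0 to 5 in B cells, 0 to 2 in CD8 T cells, 0 to 1 in the Ccl5-negative and Ccl5-positive cells, 0 to 1 in CD4 T cells, 0 to 2 in NK cells and 0 to 1 in monocytes and macrophages. Counts without a share of all genes beside them are a description. The Slamf7 share difference was -1.12 percentage points in Ccl5-negative cells and -3.29 in Ccl5-positive cells with 2000 UMIs per cell. Causes were not tested. Of 1466 values for single genes, 1343 kept their side of the threshold, and 85 lost and 38 gained a call. Most of the 1466 had no call in the main fit and could not lose one, so 1343 does not measure how stable the calls were. Slamf7 kept its call in 13 of 18 alternatives in B cells and 11 of 16 in CD8 T cells. In the Ccl5-negative and the Ccl5-positive cells it did so in 14 of 16 each. Slamf1 kept its B cell call in 8 of 18. Where the main fit or the alternative had a call, 0 changed direction. Values without a call did change sign: Ly9 in CD4 T cells kept its sign in 8 of 18 alternatives. Small classes, down to 37 NK cells in a library, limit what can be seen.

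Whether replicate numbers pair the libraries could not be decided. In B cells, deviations of same-numbered libraries from their diet means correlated at 0.573, -0.657 and -0.631. List form was not removed first, and the filtered libraries carry different numbers, ND replicate 2 and MCDHFD replicate 3. With the replicate block as a term, 2 members were called in CD4 T cells (lower, against 4.25% of all genes). There were 3 in monocytes and macrophages (Cd244a higher and 2 lower, against 2.63% and 5.86%) and 3 in B cells (lower, against 5.74%). That fit has nearly as many terms as libraries, so its counts are a description.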
